A study of Mus musculus with 4 samples.

Results

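The variable (V) segments of the mouse immunoglobulin kappa light chain were examined in RNA-seq of lineage-negative bone marrow cells. Members were the rows of the gene table whose gene type is IG_V_gene and whose name begins with Igkv, which gave 91 of 15607 genes. GENCODE M21 annotates 100 such segments on build mm10, and the other 9 were not analysed here. The 91 segments carry 19 subfamily numbers and lie on chromosome 6 between 67609713 and 70704177, upstream of the joining segments Igkj1 to Igkj5 and the constant gene Igkc. The knockout group, labelled Mel18 knock out, carried a conditional deletion of the Polycomb gene Mel18 (Pcgf2) in the blood system and consisted of mice 5 and 6. It was set against wild type mice 1 and 3, with 1 library per mouse. The promoter driving the deletion, the deleted exons, strain and age are not stated in the labels. All 4 mice gave primary bone marrow cells, labelled as stem and progenitor cells, and the sample titles call them HSCs (hematopoietic stem cells). The cells were sorted as Lin-, that is without markers of mature blood lineages. The markers used in the sort and any treatment are not named.

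Each developing B cell joins 1 Igkv segment to 1 Igkj segment by V(D)J recombination, and the joined exon is spliced to Igkc to make the kappa chain. Transcripts of a V segment therefore come mainly from cells, and the progeny of cells, that have joined that segment. Pre-B cells make the first kappa joints, mature B cells transcribe them at a moderate rate, and plasma cells, which secrete antibody, hold very large amounts of the message. Because a clone passes its joint to all its descendants, the mixture of V segments in a marrow sample is a record of which B and plasma cells it held.

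Segments differ most in the loops that contact antigen. The 3' ends of the 6 segments with the highest mean level per length are shown because they carry the start of the third such loop, CDR3. Sequences are 75 bases, 5' to 3', from GENCODE M21 transcripts on mm10, and capitals mark the bases after the last in-frame cysteine codon, which in Igkv segments closes the third framework region.
Igkv10-96, chr6:68631963-68632037, minus strand: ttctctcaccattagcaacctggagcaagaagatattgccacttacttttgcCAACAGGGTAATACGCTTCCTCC
Igkv15-103, chr6:68437851-68437925, plus strand: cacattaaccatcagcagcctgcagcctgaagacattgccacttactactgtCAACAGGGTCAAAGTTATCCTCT
Igkv1-110, chr6:68271193-68271267, plus strand: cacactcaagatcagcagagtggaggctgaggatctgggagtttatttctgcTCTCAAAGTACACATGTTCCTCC
Igkv1-117, chr6:68121753-68121827, plus strand: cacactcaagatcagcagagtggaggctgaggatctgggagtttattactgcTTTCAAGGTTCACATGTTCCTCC
Igkv14-126, chr6:67896568-67896642, plus strand: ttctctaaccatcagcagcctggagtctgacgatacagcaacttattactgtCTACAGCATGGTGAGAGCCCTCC
Igkv19-93, chr6:68736297-68736371, minus strand: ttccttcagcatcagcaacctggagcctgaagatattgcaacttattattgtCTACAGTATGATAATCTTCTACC

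All 91 coding sequences began with ATG, and in 61 of them 23 bases followed that cysteine codon, as in these 6. The sequence of each V exon was closest to that of another segment of its own subfamily number for 85 of the 91, with a median identity of 94.2%. Reads from near-identical stretches can be assigned to the wrong segment or lost, and how the authors counted them is not given. In 21 segments no window of 50 bases was shared with another annotated Igkv gene or pseudogene, while in 15 over 50% of the windows were. With windows of 100 bases, 50 segments shared none, and 2 segments, Igkv6-20 and Igkv6-29, shared 55.8% with each other. Values of single segments are uncertain to that extent.

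Total counts were 46240864 and 44642002 in Mel18 knockout mice 5 and 6, and 35599564 and 37197363 in wild type mice 1 and 3. Pcgf2 had 303 and 321 counts in knockout mice 5 and 6, against 210 and 158 in wild type mice 1 and 3, which gave a fitted log2 fold change of 0.44 ± 0.20 (SE, adjusted p = 0.575 by edgeR quasi-likelihood). Whole-gene counts cannot check a deletion of unnamed exons, so knockout and wild type are used here as labels. Kit and Cd34, surface proteins of early progenitors, were present at 195 to 238 CPM and 128 to 183 CPM over the 4 libraries. The stem and progenitor list had a median log2 fold change of -0.095, with 0 of 8 genes past the test, and the erythroid list had 0.22, with 0 of 6. The T cell list had a median of -0.30, with 0 of 9 past the test. Of 8 neutrophil genes, 2 fell (Retnlg and Cxcr2) and 0 rose, with a median of -0.77, where 0.103% of all genes fell and 0.032% rose. Of 6 measured stroma genes 0 passed, with a median of 2.97. Genes with an unadjusted p under 0.05 numbered 1, 1, 0, 8 and 3 in these lists in that order, against 8.89% of all genes. The neutrophil list summed to 12708 and 12908 CPM in knockout mice 5 and 6, and 18191 and 25831 CPM in wild type mice 1 and 3. The stroma list summed to 612 and 579 CPM in the knockout mice, and 15.4 and 143 CPM in the wild type mice, and the part of either cell type in the Igkv values was not tested.

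The Igkv segments together were a small but deeply counted part of each library. They had 86547 and 81390 counts in knockout mice 5 and 6, and 91050 and 48962 in wild type mice 1 and 3, or 0.187% and 0.182% of all counts in the knockout libraries, against 0.256% and 0.132% in the wild type libraries. The summed level was 1873 and 1823 CPM, which are counts scaled to a fixed total by TMM-adjusted library size, in knockout mice 5 and 6, and 2489 and 1352 CPM in wild type mice 1 and 3. The knockout mice lay between the wild type mice, so the groups overlapped. Means were 1848 ± 35.7 CPM in knockout and 1921 ± 804 CPM in wild type (SD, n = 2 each), a log2 ratio of -0.056. A comparison of 2 against 2 libraries cannot give an exact two-sided permutation p under 0.333. Fewer kappa-bearing cells and less kappa RNA per cell cannot be told apart in such bulk samples.

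Some other transcripts of antibody-making cells stood in the order of the Igkv sum across the mice, and others did not. Igkc had 5301 and 5184 CPM in knockout mice 5 and 6, and 7922 and 3970 CPM in wild type mice 1 and 3. Jchain, which encodes the chain that joins IgA and IgM units, had 1563 and 1502 CPM in the knockout mice, against 2521 and 1147 CPM in the wild type mice. Igha, the constant gene of IgA, named outside the rule for named genes, had 11293 and 10597 CPM in the knockout mice, against 13817 and 7985 CPM in the wild type mice. Wild type mouse 1 was highest and wild type mouse 3 lowest for these 3 genes as for the Igkv sum. Ighm, the constant gene of IgM, broke that order, with 1130 and 907 CPM in knockout mice 5 and 6, and 2190 and 938 CPM in wild type mice 1 and 3. Ighg1, Ighg2b and Ighg3 broke it too. Cd79a, part of the B cell receptor, stood at 34.2 and 27.4 CPM in knockout mice 5 and 6, and 40.9 and 37.6 CPM in wild type mice 1 and 3. Igkv counts per 100 Igkc counts were 35.3 and 35.2 in the knockout mice, and 31.4 and 34.1 in the wild type mice, so these ratios differed less between mice than either level did, and both knockout mice lay above both wild type mice.

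**Figure D1:**
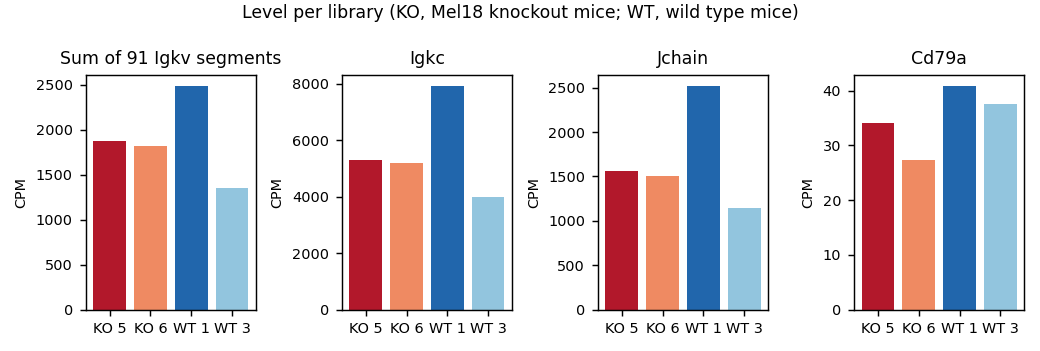
Level in CPM (y axes, from 0) of the sum of 91 Igkv segments, Igkc, Jchain and Cd79a in each library, 1 bar per mouse. For the sum, Igkc and Jchain the knockout mice lie between wild type mice 1 and 3, while for Cd79a both knockout mice lie below both wild type mice.

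All genes analysed had at least 24 counts over the 4 libraries. Finding most segments in each mouse was thus in part built in, and breadth of usage is not read from it. A detectable count was found for 90 of 91 segments in knockout mouse 5 and 91 in knockout mouse 6. In wild type mice 1 and 3 it was found for 91 and 90. The exceptions were Igkv20-101-2, with 0 of 86547 Igkv counts in knockout mouse 5, and Igkv6-29, with 0 of 48962 in wild type mouse 3. Taking up to 3 counts as compatible with 0, counting error alone allows shares of up to 0.00347% and 0.00613%. Igkv6-29 has 55.8% of its 100-base windows in common with Igkv6-20, so its reads may have been lost or assigned there, which was not tested. The effective number of segments, the inverse of the summed squared shares, was 37.2 and 34.2 in knockout mice 5 and 6, and 40.7 and 33.1 in wild type mice 1 and 3. It took 14 and 13 segments to reach 50% of the Igkv counts in the knockout mice, and 15 and 12 in the wild type mice. By these measures the knockout mice again lay within the range of the wild type mice.

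Igkv10-96, Igkv15-103, Igkv1-110 and Igkv1-117 led in mean level per length. Igkv10-96, on the minus strand at 68631963 to 68632442, had 239 and 431 CPM per kb in knockout mice 5 and 6, and 421 and 248 CPM per kb in wild type mice 1 and 3. It took 4.58% and 8.50% of Igkv counts in the knockout mice, and 6.07% and 6.58% in the wild type mice, and was the most counted segment in knockout mouse 6 (95% exact binomial interval 8.31% to 8.69%) and wild type mouse 1 (5.91% to 6.22%). Such intervals cover counting error only, since reads of 1 message are not independent molecules. Its fitted log2 fold change was 0.0038 ± 0.49 (SE, adjusted p = 0.999, edgeR quasi-likelihood), and the sign turned under other scalings, with -0.0068 on total counts. Igkv15-103, the most counted segment in knockout mouse 5, had 275 and 224 CPM per kb in knockout mice 5 and 6, and 338 and 194 CPM per kb in wild type mice 1 and 3. Both segments overlapped between the groups.

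Igkv1-110 and Igkv1-117 were the steadiest of the abundant segments. Igkv1-110 had 84.4 and 79.9 CPM in knockout mice 5 and 6, and 101 and 98.7 CPM in wild type mice 1 and 3, so both knockout mice lay below both wild type mice. The fitted log2 fold change was -0.28 ± 0.076 (SE) and missed the threshold (adjusted p = 0.348, edgeR quasi-likelihood). Igkv1-117 had 84.1 and 85.4 CPM in the knockout mice, and 80.7 and 74.3 CPM in the wild type mice, so the groups again did not overlap (log2 fold change 0.13 ± 0.078 SE, adjusted p = 0.643 by quasi-likelihood). Of their 50-base windows 50.9% and 49.9% are shared with another Igkv gene, and each is the other's closest relative. The order of mean levels per length went on with Igkv14-126 (176 CPM per kb), Igkv19-93 (166), Igkv1-135 (164), Igkv6-15 (150), Igkv5-39 (150) and Igkv12-46 (143). These 6 neighbours did not differ beyond their spread, since single mice ranged from 78.6 to 273 CPM per kb for Igkv14-126 alone. Over all 91 segments the mean level ranged from 0.776 CPM per kb for Igkv4-78 to 335 CPM per kb for Igkv10-96, with a median of 33.9.

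**Figure D2:**
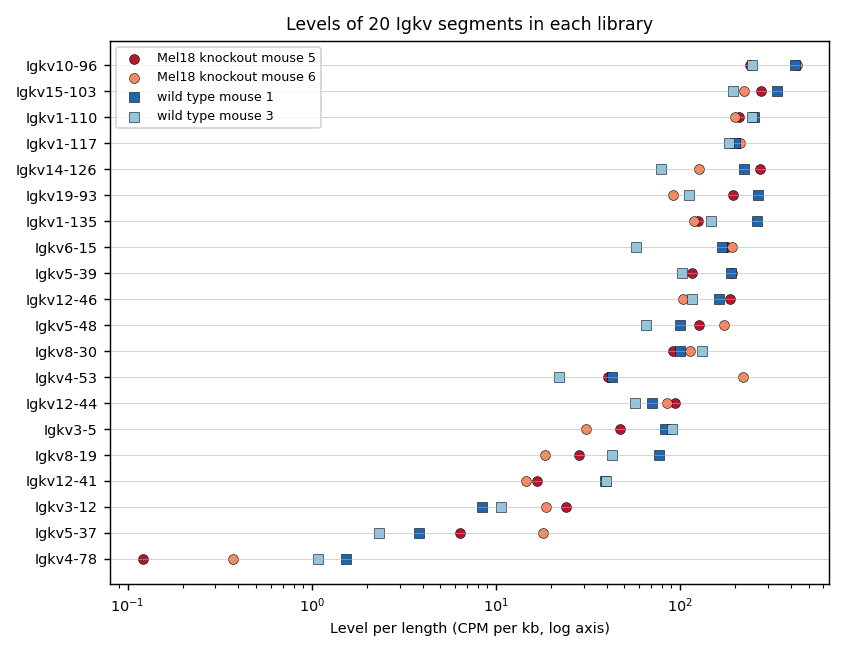
Level per length (x axis, CPM per kb, log scale) of 20 Igkv segments in each of the 4 libraries, circles for Mel18 knockout mice and squares for wild type mice. The abundant segments at the top overlap between the groups except Igkv1-110, Igkv1-117, Igkv1-135 and Igkv6-15, and at Igkv12-41 the knockout mice lie at 14.6 and 16.8, below wild type mice at 39.4 and 39.6.

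By subfamily, Igkv1 and Igkv4 took the most counts, and their order was not the same in the 2 genotypes. Igkv1, with 7 segments, held 12.2% and 12.3% of Igkv counts in knockout mice 5 and 6, and 16.0% and 18.6% in wild type mice 1 and 3. Igkv4, the largest subfamily with 24 segments, held 15.6% and 16.9% in the knockout mice, and 13.3% and 12.2% in the wild type mice. Means were 12.3% ± 0.0805 in knockout and 17.3% ± 1.83 in wild type for Igkv1, and 16.3% ± 0.881 in knockout and 12.7% ± 0.823 in wild type for Igkv4 (SD, n = 2 each). The mice of the 2 groups did not overlap in either subfamily, and no test was made of the shares.

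The differences, knockout minus wild type, were 3.53 percentage points for Igkv4 and -5.01 for Igkv1. Within both subfamilies, some segments were high in 1 mouse. In Igkv1, wild type mouse 1 stood at least 4 times above the next mouse for Igkv1-88 and Igkv1-99. Knockout mouse 6 gave Igkv4-53 80.6 CPM, against 14.8 CPM in knockout mouse 5, and 15.7 and 8.09 CPM in wild type mice 1 and 3. Knockout mouse 5 gave Igkv4-90 71.5 CPM, against 17.2 CPM in knockout mouse 6, and 9.95 and 12.6 CPM in wild type mice 1 and 3.

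Of the 19 subfamilies, 3 had both knockout shares above both wild type shares and 4 had both below, where 21.4% of all genes lay above and 20.9% below in their levels. These counts are close to those percentages, but shares within a library depend on each other and are not the same measure as levels. Those above were Igkv4, Igkv5 and Igkv14, and those below were Igkv1, Igkv3, Igkv8 and Igkv13. Igkv5 held 6.29% and 9.27% in knockout mice 5 and 6, and 6.11% and 5.83% in wild type mice 1 and 3. Igkv14 held 8.50% and 7.25% in the knockout mice, and 5.33% and 6.11% in the wild type mice. Igkv3 held 5.27% and 6.19% in the knockout mice, and 8.40% and 7.96% in the wild type mice. Igkv8 held 6.85% and 7.49% in the knockout mice, against 8.53% and 8.68% in the wild type mice. Measured as CPM in place of shares, 0 of 19 subfamilies lay above and 1 below, against 21.4% and 20.9% of all genes. The 1 below was Igkv1, with 229 and 225 CPM in the knockout mice and 398 and 251 CPM in the wild type mice.

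The other subfamilies overlapped between genotypes in their shares. Igkv6, with 9 segments, held 10.2% and 10.9% in knockout mice 5 and 6, and 11.2% and 5.68% in wild type mice 1 and 3, so the wild type mice were farthest apart. Igkv10, with 3 segments, held 7.04% and 9.59% in the knockout mice, and 7.20% and 7.42% in the wild type mice. Igkv15, whose 1 segment is Igkv15-103, held 5.50% and 4.60% in the knockout mice, and 5.10% and 5.39% in the wild type mice. Igkv2 held 1.73% and 2.09% in the knockout mice, and 0.794% and 4.26% in the wild type mice, where Igkv2-109 had 584 and 1778 counts. The 3 least used, Igkv11, Igkv20 and Igkv7, each have 1 segment here, and their shares were at or below 0.253% in all 4 libraries.

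**Figure D3:**
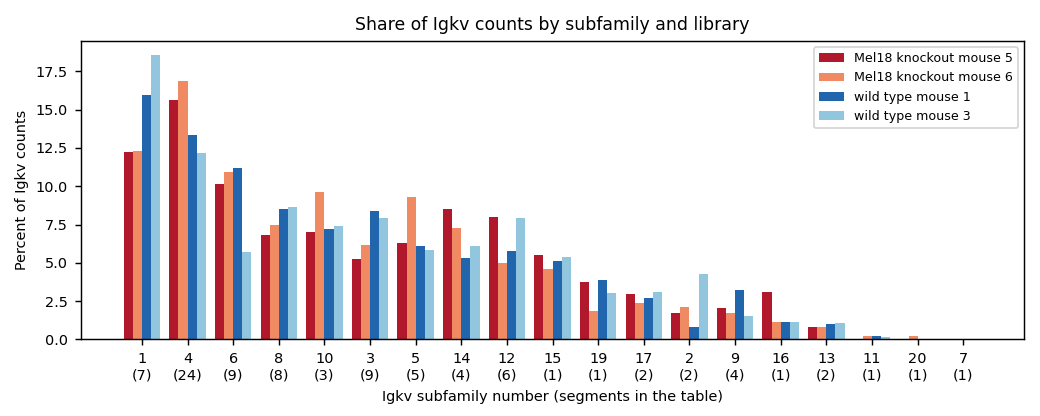
Share of Igkv counts (y axis, percent, from 0) in each of 19 subfamily numbers (x axis, with the number of segments in brackets), 1 bar per mouse. Igkv1 is lower and Igkv4 higher in both knockout mice than in both wild type mice, and most other subfamilies overlap.

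Position along the locus was compared next, since segments near Igkj1 and far from it can be joined at different steps of B cell development. The 31 segments farthest from Igkj1, at 1887 to 3112 kb, held 53.8% and 46.1% of Igkv counts in knockout mice 5 and 6, and 45.5% and 53.9% in wild type mice 1 and 3. The 30 middle segments held 21.03% and 25.2% in the knockout mice, and 23.4% and 20.97% in the wild type mice. The 30 nearest, at 18.4 to 822 kb, held 25.2% and 28.7% in the knockout mice, and 31.1% and 25.1% in the wild type mice. The groups overlapped in each of these parts, and knockout mouse 5 and wild type mouse 3 had nearly the same profile.

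Segments in the same orientation as Igkj1 are joined by deletion of the DNA between, and the others by inversion. The 35 segments on the plus strand held 44.4% and 39.5% of Igkv counts in knockout mice 5 and 6, and 42.6% and 51.1% in wild type mice 1 and 3. Means were 41.9% ± 3.47 in knockout and 46.8% ± 5.99 in wild type (SD, n = 2 each), and the groups overlapped.

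**Figure D4:**
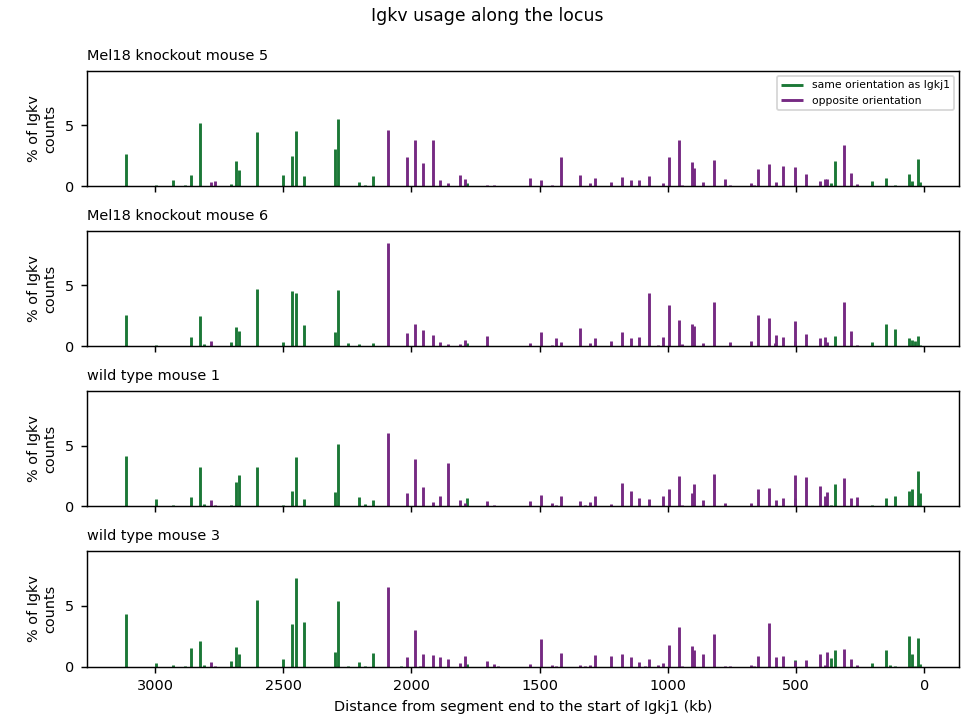
Share of Igkv counts (y axes, percent) of each segment against its distance to Igkj1 (x axis, kb, with Igkj1 at the right), 1 panel per mouse, coloured by orientation. The tall lines near 2090 kb (Igkv10-96) and 2285 kb (Igkv15-103) are shared by all 4 mice, while others, such as Igkv4-53 near 1073 kb in knockout mouse 6, stand out in 1.

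Segment usage varied between mice of the same genotype far more than genes did in general. Between knockout mice 5 and 6, 38 of 91 segments (41.8%) differed at least 2-fold, against 1.64% of all genes. Between wild type mice 1 and 3, whose Igkv sums also differed, 53 segments (58.2%) did, against 3.86% of all genes. The median biological coefficient of variation was 35.8% for the segments and 13.9% for 3620 other genes with a mean of 4.66 to 29.2 CPM, the middle range of the segments. Over the 91 segments, Spearman's rho of counts was 0.787 between the knockout mice and 0.805 between the wild type mice. Between genotypes it ranged from 0.747 (knockout mouse 6 and wild type mouse 3) to 0.845 (knockout mouse 5 and wild type mouse 3). These are descriptions across segments that share libraries. The median absolute log2 ratio of a segment was 0.78 between the knockout mice and 1.18 between the wild type mice, and 0.81 to 1.01 between genotypes.

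Part of that variation was in segments in which 1 mouse stood far above the rest. In 10 of 91 segments (11.0%) the highest library was at least 4 times the next, against 0.154% of all genes. Knockout mouse 6 led 5 of them, knockout mouse 5 led 1, wild type mouse 1 led 4 and wild type mouse 3 led 0. The 4 shown here were chosen after their values were seen, as examples with a leading mouse of each kind. Capitals mark the bases after the last in-frame cysteine codon.
Igkv3-3, chr6:70687460-70687534, plus strand: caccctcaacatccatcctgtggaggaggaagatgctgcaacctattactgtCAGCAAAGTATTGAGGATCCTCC
Igkv1-88, chr6:68862265-68862339, minus strand: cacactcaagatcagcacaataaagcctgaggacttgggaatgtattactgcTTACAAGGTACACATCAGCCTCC
Igkv4-53, chr6:69648824-69648898, minus strand: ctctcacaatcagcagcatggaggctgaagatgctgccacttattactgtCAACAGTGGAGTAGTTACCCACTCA
Igkv4-90, chr6:68807179-68807253, minus strand: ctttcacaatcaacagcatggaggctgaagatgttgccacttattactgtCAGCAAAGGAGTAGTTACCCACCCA

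Igkv3-3 had 364 counts in knockout mouse 6, against 17 in knockout mouse 5, and 16 and 9 in wild type mice 1 and 3. Igkv1-88 had 212 and 178 counts in knockout mice 5 and 6, against 3284 and 313 in wild type mice 1 and 3. It took 0.245% and 0.219% of Igkv counts in the knockout mice, against 3.61% (95% exact binomial interval 3.49% to 3.73%) and 0.639% in the wild type mice. The fitted log2 fold change of -3.52 ± 1.61 (SE) missed the threshold (adjusted p = 0.643, edgeR quasi-likelihood). No window of 50 bases in it is shared with another Igkv gene. Igkv20-101-2 had 0 and 206 counts in knockout mice 5 and 6, and 11 and 3 in wild type mice 1 and 3. Igkv3-7 was uneven within both genotypes, with 75 and 1167 counts in the knockout mice, and 743 and 20 in the wild type mice. Igkv20-101-2, Igkv3-7 and Igkv2-109 were named after their values were seen.

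Between the genotypes, 1 Igkv segment passed the edgeR quasi-likelihood test with Benjamini-Hochberg adjustment over all genes. Igkv12-41 fell in knockout, 0 segments rose and 90 did not pass. Of all genes 0.135% passed, 0.032% higher and 0.103% lower. An unadjusted p under 0.05 was found for 11 segments (12.1%), 4 higher and 7 lower, against 8.89% of all genes. Both knockout mice lay above both wild type mice for 10 segments (11.0%) and below them for 16 (17.6%), against 21.4% and 20.9% of all genes. The median log2 fold change was -0.078 over the segments and -0.0053 over all genes. Fitted changes of at least 2-fold were common, in 29 of 91 segments (31.9%) against 2.25% of all genes, and so were large errors, with a median SE of 0.75 against 0.13. Replicates are separate mice per the labels, 2 per group.

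**Figure D5:**
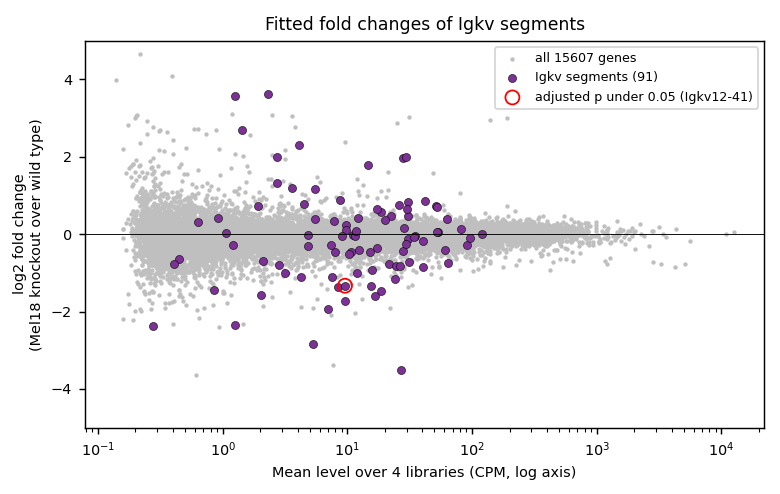
Fitted log2 fold change of Mel18 knockout over wild type (y axis) against mean level (x axis, CPM, log scale) for 91 Igkv segments (purple) and all 15607 genes (grey, 3 outside the plotted range). The segments scatter on both sides of 0 more widely than genes of the same level, and Igkv12-41 is the circled one that passed the test.

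Igkv12-41, on the minus strand at 69858420 to 69858884, had 269 and 226 counts in knockout mice 5 and 6, and 500 and 498 in wild type mice 1 and 3. The level was 5.82 and 5.06 CPM in the knockout mice, and 13.7 and 13.8 CPM in the wild type mice, with means of 5.44 ± 0.538 CPM in knockout and 13.7 ± 0.0584 CPM in wild type (SD, n = 2 each). The log2 fold change was -1.33 ± 0.15 (SE) with an adjusted p of 0.0430 (edgeR quasi-likelihood). It stayed negative under all 12 alternatives, from -1.44 to -1.24, of which the fit with no filter was the main one again. With all 4 libraries Igkv12-41 passed with DESeq2 size factors (adjusted p = 0.0422, quasi-likelihood), the likelihood ratio test (5.90e-06) and the DESeq2 Wald test (1.77e-09). Quasi-likelihood did not call it on total counts (adjusted p = 0.0537), without robust estimation (0.0777) or with the filter of 1 CPM in 2 libraries (0.0550). Limma voom did not call it either (adjusted p = 0.0923). The log2 fold change of Igkv12-41 was -1.44 without knockout mouse 5 and -1.24 without knockout mouse 6. With 1 knockout mouse left the test cannot weigh the call, since that mouse is assumed to vary like the others. Under the same assumption, calls of other segments changed with the wild type mouse left out. Without wild type mouse 1, 9 segments were called higher (9.89%, against 0.276% of all genes), and without wild type mouse 3, 19 were called lower (20.9%, against 2.87% of all genes). As a share of Igkv counts it stood at 0.311% and 0.278% in the knockout mice, and 0.549% and 1.02% in the wild type mice.

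The closest segment to Igkv12-41 in sequence is Igkv12-44, 43.5 kb farther from Igkj1. Their V exons, each of 298 bases, differ at 13 positions without gaps, an identity of 95.6%. Capitals mark those positions in both.
Igkv12-41, chr6:69858420-69858717, minus strand: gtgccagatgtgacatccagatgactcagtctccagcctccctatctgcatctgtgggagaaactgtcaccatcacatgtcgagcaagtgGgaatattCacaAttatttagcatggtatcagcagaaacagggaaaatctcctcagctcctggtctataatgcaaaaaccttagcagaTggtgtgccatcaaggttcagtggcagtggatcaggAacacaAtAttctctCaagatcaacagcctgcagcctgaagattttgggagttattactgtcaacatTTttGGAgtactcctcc
Igkv12-44, chr6:69814631-69814928, minus strand: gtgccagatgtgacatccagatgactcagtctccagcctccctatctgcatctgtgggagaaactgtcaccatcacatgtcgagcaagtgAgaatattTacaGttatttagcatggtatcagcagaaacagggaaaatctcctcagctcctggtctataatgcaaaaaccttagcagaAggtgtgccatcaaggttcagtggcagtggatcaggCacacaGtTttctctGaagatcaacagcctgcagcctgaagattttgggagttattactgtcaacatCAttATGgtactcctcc

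Igkv12-44 had 37.5 and 34.0 CPM in knockout mice 5 and 6, and 28.3 and 22.9 CPM in wild type mice 1 and 3. Both knockout mice lay above both wild type mice, with a fitted change of 0.48 ± 0.12 on the log2 scale (SE) that missed the threshold (adjusted p = 0.308, edgeR quasi-likelihood). Of the 50-base windows of Igkv12-41, 30.9% are shared with another Igkv gene, and of its 100-base windows 5.65% are. The sum of the 2 segments was 43.4 and 39.1 CPM in the knockout mice, and 42.0 and 36.7 CPM in the wild type mice, which overlap. Whether reads moved between them in counting was not tested.

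The next segments by p did not pass over all genes. Their groups did not overlap, which a choice by p favours, and of all genes 21.4% lay above and 20.9% below. Igkv3-12 had 8.61 and 6.72 CPM in knockout mice 5 and 6, and 3.03 and 3.84 CPM in wild type mice 1 and 3 (log2 fold change 1.16 ± 0.22 SE, adjusted p = 0.165, edgeR quasi-likelihood). Igkv3-5 had 18.0 and 11.8 CPM in the knockout mice, and 31.6 and 34.5 CPM in the wild type mice (log2 fold change -1.15 ± 0.20 SE, adjusted p = 0.165). Of their 50-base windows 58.4% and 51.4% are shared with other Igkv genes. Igkv4-78 had 2 and 6 counts in the knockout mice, and 20 and 14 in the wild type mice, the lowest mean level of all the segments.

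Igkv5-37 and Igkv5-48 were higher in both knockout mice, and Igkv8-19 was lower. Igkv5-37 had 106 and 288 counts in knockout mice 5 and 6, and 50 and 30 in wild type mice 1 and 3 (log2 fold change 1.99, adjusted p = 0.442 by quasi-likelihood). Igkv5-48 had 45.6 and 62.5 CPM in the knockout mice, and 36.3 and 23.4 CPM in the wild type mice (0.86, adjusted p = 0.512). Igkv8-19 had 10.5 and 6.83 CPM in the knockout mice, and 28.5 and 15.9 CPM in the wild type mice (-1.35, adjusted p = 0.453). None of these 3 passed. Their groups did not overlap, which is in part built in, since they were named for their small p.

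The authors' deposited table gives 5 segments (5.49%) an adjusted p below 0.05, of which 1 is higher and 4 are lower in knockout. Over all genes, the authors' deposited table calls 1.13%, 0.365% higher and 0.762% lower. In the authors' deposited table Igkv3-12 is higher (log2 fold change 1.16, adjusted p = 0.0118), and Igkv12-41 (-1.33, adjusted p = 5.97e-06), Igkv3-5 (-1.15, adjusted p = 0.000395), Igkv4-78 (-2.36, adjusted p = 0.0108) and Igkv1-133 (-2.84, adjusted p = 0.0133) are lower. Igkv1-133 had 66 and 52 counts in knockout mice 5 and 6, and 531 and 148 in wild type mice 1 and 3, and its quasi-likelihood adjusted p was 0.465. The edgeR likelihood ratio test, run on the deposited counts, also called 1 segment higher and 4 lower, where 1.13% of all genes were called. The DESeq2 Wald test called 3 higher and 3 lower, where 1.40% of all genes were called.

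The rest of the kappa locus and its partners did not pass the test. Of 16 genes of the light chains and the surrogate light chain, 0 passed, with a median log2 fold change of -0.15. In that list 1 gene had an unadjusted p under 0.05, against 8.89% of all genes. Igkc, onto which every joined Igkv exon is spliced, had a mean of 5243 ± 83.3 CPM in knockout and 5946 ± 2794 CPM in wild type (SD, n = 2 each), with a log2 fold change of -0.18 ± 0.32 (SE, adjusted p = 0.869, edgeR quasi-likelihood). Without wild type mouse 1 that change was 0.40 (adjusted p = 0.307), and without wild type mouse 3 it was -0.60 and passed (adjusted p = 0.0471). Iglc3, a lambda constant gene, had the smallest p of the list, with 38.4 CPM in each of knockout mice 5 and 6, and 42.9 and 55.6 CPM in wild type mice 1 and 3 (log2 fold change -0.36, adjusted p = 0.469).

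Counts over Igkj1, Igkj2 and Igkj5 overlapped between the genotypes as shares, and few lay on Igkj3, which is known in the mouse as a joining segment that yields no functional kappa chain. Igkj1 took 32.0% and 23.8% of Igkj counts in knockout mice 5 and 6, and 29.1% and 39.3% in wild type mice 1 and 3. Igkj2 took 32.0% and 40.1% in the knockout mice, and 33.9% and 33.6% in the wild type mice. Igkj5, the farthest of them from the Igkv segments, took 25.5% and 25.1% in the knockout mice, and 26.1% and 15.5% in the wild type mice. Igkj3 had 20 and 10 counts in the knockout mice, and 47 and 16 in the wild type mice (adjusted p = 0.564, edgeR quasi-likelihood).

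Genes of V(D)J recombination and of kappa locus regulation did not pass either, with 0 of 12 and 0 of 14 called. Their medians were -0.031 and -0.21, and 1 and 2 genes had an unadjusted p under 0.05, against 8.89% of all genes. For Prkdc, a kinase needed to rejoin the broken ends, the fitted log2 fold change was 0.27 (adjusted p = 0.490). For Rag1, a subunit of the recombinase that cuts them, it was -0.57 (adjusted p = 0.590, edgeR quasi-likelihood). Rag1 stood at 19.2 and 12.9 CPM in knockout mice 5 and 6, and 19.6 and 28.2 CPM in wild type mice 1 and 3. Spib and Irf4, transcription factors that act on light chain enhancers, had -0.50 and -0.34 (adjusted p = 0.442 and 0.465 by quasi-likelihood). For 8 of the 14 regulators both knockout mice lay below both wild type mice, and for 2 above, where 20.9% of all genes lay below and 21.4% above.

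Marker lists of the cells that could carry Igkv transcripts were read beside the segments. Of 12 pre-B, 11 measured mature B and 13 plasma cell genes, 0 passed, with medians of -0.28, -0.24 and -0.041. In these lists 3, 3 and 1 genes had an unadjusted p under 0.05, against 8.89% of all genes. The summed level of the plasma cell list was 2174 and 2168 CPM in knockout mice 5 and 6, and 3144 and 1738 CPM in wild type mice 1 and 3, the order of the Igkv sum, and Jchain made up most of it. The pre-B list had 292 and 249 CPM in the knockout mice, and 298 and 340 CPM in the wild type mice. The mature B list had 664 and 669 CPM in the knockout mice, and 786 and 741 CPM in the wild type mice. In both sums the knockout mice lay below the wild type mice, though for pre-B knockout mouse 5 was close to wild type mouse 1. Of the 12 pre-B genes, 4 had both knockout mice below both wild type mice and 1 had them above. Of all genes 20.9% lay below and 21.4% above. All 11 measured mature B genes had a negative fitted log2 fold change, and for 8 of them both knockout mice lay below both wild type mice, against 20.9% of all genes. No listed marker of these 3 cell types was at 0 counts in any library, and their part in the Igkv values was not tested.

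Single markers with the smallest p in these lists did not pass. Ms4a1, the B cell surface protein CD20, had 6.28 and 4.95 CPM in knockout mice 5 and 6, and 11.6 and 8.50 CPM in wild type mice 1 and 3 (log2 fold change -0.84, adjusted p = 0.294, edgeR quasi-likelihood). Fcer2a, a low-affinity IgE receptor of mature B cells, had 27 and 17 counts in the knockout mice, and 40 and 44 in the wild type mice (-1.25, adjusted p = 0.346). Il7r, the interleukin 7 receptor of B progenitors, had -0.51 (adjusted p = 0.458), and Creld2, an endoplasmic reticulum chaperone, had 0.54 (adjusted p = 0.593). Positive log2 fold changes were found for 3 of the 12 pre-B genes and 4 of the 13 plasma cell genes. Il7r thus went with most of its list, and Creld2 against most of its list. Sdc1, the plasma cell surface protein CD138, named outside the rule, had 24.5 and 21.3 CPM in the knockout mice, and 28.7 and 19.4 CPM in the wild type mice (-0.074, adjusted p = 0.915).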

How the data were processed

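RNA-seq counts of 4 libraries were used, Mel18 knockout mice 5 and 6 and wild type mice 1 and 3. Per the labels' protocols, RNA went through a SMART-Seq v4 kit and a Nextera XT library kit, neither of which marks strand. FastQC, MultiQC 0.11.5, Trimmomatic 0.40, STAR 2.5, edgeR 3.28.1 and build mm10 are named in the submitters' processing notes. No source used here names the read counter or its treatment of multi-mapped reads. The deposited table holds whole-number counts per gene, not normalized, for 15607 genes with at least 24 counts in all. It also holds gene lengths, and the authors' log2 fold change and p-value columns per the file headers. A further 2 columns of per-sample values match no described sample and were not used. All 91 segment identifiers matched GENCODE M21 in position.

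Counts were analysed with edgeR 4.0.16 in R 4.3.3 (TMM, robust quasi-likelihood, Benjamini-Hochberg over all genes, threshold 0.05). filterByExpr removed 0 genes. CPM used TMM-scaled library sizes. Log2 ratios between 2 libraries used a pseudocount of 0.1 CPM. Standard errors came from the F statistic. The procedure was also run on simulated counts with the spread typical of all genes at each level. The Igkv segments vary more than that, so the run does not cover them. Alternatives were DESeq2 1.42.0 (size factors, Wald test), total counts, the edgeR likelihood ratio test, limma 3.58.1 voom, non-robust fits, a filter of 1 CPM in 2 libraries or none, other sets of rows, and leaving out each library. Named were segments past the test, the 10 with the highest mean CPM, the 5 of each direction with the smallest p, the highest of the 5 largest subfamilies, and from each list up to 4 genes with the smallest p. Members and lists were chosen with earlier results of these data known.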

Additional observations from a re-analysis of the deposited data

How the results depend on the processing

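The 1 lower segment, Igkv12-41, was the call with DESeq2 size factors too. With no filter the fit was the main one again, since filterByExpr removed 0 genes. On total counts and without robust estimation, 0 segments were called lower. The same held with the filter of 1 CPM in 2 libraries and with limma voom. Calls over all genes were not counted in those settings, so nothing is drawn from this. The likelihood ratio test called 4 lower and the DESeq2 Wald test 3, where 1.13% and 1.40% of all genes were called in either direction. The number called higher, 0 in the quasi-likelihood test, was 1 by the likelihood ratio test and 3 by the Wald test, and the causes were not tested. Leaving out 1 mouse gave 1 to 9 segments higher and 0 to 19 lower. The 9 higher came without wild type mouse 1 (9.89% of segments, 0.276% of all genes) and the 19 lower without wild type mouse 3 (20.9% of segments, 2.87% of all genes), the mice with the highest and lowest Igkv sums. The log2 ratio of the summed Igkv level ranged from -0.43 (without wild type mouse 3) to 0.45 (without wild type mouse 1), and the median Igkv log2 fold change from -0.41 to 0.50 without the same mice. With 1 mouse left in a group, that mouse is assumed to vary like the others.

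The subfamily difference in percentage points ranged from -6.30 to -3.72 for Igkv1, 2.91 to 4.15 for Igkv4, -0.65 to 4.86 for Igkv6, -1.76 to -1.11 for Igkv8 and -0.27 to 2.28 for Igkv10 when 1 mouse was left out. Without the 10 segments led by 1 library, a rule added after seeing the data, it was -2.85 for Igkv1 and -0.20 for Igkv4. That rule removes segments by their own extreme values, so a smaller difference is in part built in and nothing is drawn from it. Some abundant segments turned direction when 1 mouse was left out, with log2 fold changes from -0.48 to 0.44 for Igkv10-96, -0.44 to 0.42 for Igkv12-46, -0.27 to 1.35 for Igkv14-126, -0.45 to 0.36 for Igkv15-103, -1.04 to 0.36 for Igkv19-93, -0.34 to 0.57 for Igkv5-39, -0.37 to 0.021 for Igkv8-30 and -0.60 to 0.40 for Igkc. Igkv10-96 also turned on total counts (-0.0068), with the filter of 1 CPM in 2 libraries (-0.0019) and with limma voom (-0.0067). No paired analysis was possible because the groups share no mouse numbers.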

Other observations

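The lambda light chain, the alternative to kappa, held 1 transcript that stood apart in a single mouse. Iglv3, a lambda V segment, had 4946 and 165 counts in Mel18 knockout mice 5 and 6, and 182 and 313 in wild type mice 1 and 3. Iglc2, a lambda constant gene on the same chromosome, had 8088 and 1906 counts in the knockout mice, and 2130 and 1667 in the wild type mice. Neither passed the quasi-likelihood test of edgeR (log2 fold change 3.02 ± 2.12 SE for Iglv3, adjusted p = 0.725, and 1.06 ± 0.94 SE for Iglc2, adjusted p = 0.771). Iglv1, by contrast, had 5297 and 3940 counts in the knockout mice, and 4764 and 3030 in the wild type mice.

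The kappa V pseudogenes of the table, 6 rows, had 134 and 81 counts together in knockout mice 5 and 6, and 196 and 122 in wild type mice 1 and 3. Igkv2-116 had 1 and 7 counts in the knockout mice, and 29 and 53 in the wild type mice, with a quasi-likelihood adjusted p of 0.165, and is lower in the authors' deposited table (log2 fold change -3.63, adjusted p = 8.94e-06). Among heavy chain constant genes, Igha and Ighg2c followed the order of the Igkv sum, and Ighm, Ighd, Ighg1, Ighg2b and Ighg3 did not. Ighg1 had 157 and 137 CPM in knockout mice 5 and 6, and 98.4 and 345 CPM in wild type mice 1 and 3 (adjusted p = 0.844, edgeR quasi-likelihood). Ighg2b had 362 and 566 CPM in the knockout mice, and 683 and 454 CPM in the wild type mice. Ighg3 had 31.2 and 14.2 CPM in the knockout mice, and 4.65 and 19.2 CPM in the wild type mice. These genes were chosen after their values were seen.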
